A study of Canis lupus familiaris with 31 samples.

Results

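The genes described here are 10 genes known from basophils, mast cells and eosinophils: GATA2, FCER1A, MS4A2, HDC, CPA3, KIT, IL3RA, IL5RA, CCR3 and IL1RL1. They were chosen by symbol, and each had 1 of the 32704 rows in the table of read counts from the whole blood of 31 Miniature Schnauzers. Of the 10 genes, 9 passed the filter on low counts that left 13918 genes for testing, and HDC did not. The dogs were 13 cases with HTG, a raised level of triglycerides in the blood, and 18 controls with normal triglycerides. All were purebred, client-owned older adults that were sampled after a fast, and 1 library was made per dog. Females made up 5 of the cases and 8 of the controls. Dogs suspected of an endocrine disease or given drugs that alter lipids were not recruited, no dog was given a treatment by the study, and diet and living conditions were not standardized. The study asked how the blood transcriptome of dogs with HTG that arose on its own differs from that of dogs without it.

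Basophils and eosinophils are rare granulocytes of the blood, and mast cells are their relatives in tissues. All arise from progenitors that express GATA2, a zinc finger transcription factor that is kept on in basophils and mast cells and is also needed by blood stem cells. Basophils and mast cells bind IgE through the receptor that FCER1A and MS4A2 help to build, and release histamine, made by the enzyme HDC, together with proteases such as CPA3. Eosinophils respond to IL-5 and to eotaxins through IL5RA and CCR3. Because whole blood was measured, fewer cells of a type and less RNA per cell cannot be told apart in any of the values.

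The libraries held from 14524659 to 41533599 counts on genes, and the median library held 20173918. The edgeR quasi-likelihood test called 5 of the 13918 genes at an adjusted P-value of at most 0.05, which is 0.0359% of them. Before adjustment 1365 genes (9.81%) were under 0.05, 702 of them (5.04% of all) higher in cases and 663 (4.76%) lower. Levels are given as CPM, counts scaled to a common library size. The dogs were split at the largest gap in the mean of 366 small non-coding RNA rows, with at least 5 dogs kept on each side. The high side held 10 dogs, 5 cases and 5 controls, whose means were at least 1.66 log2 CPM. The low side held 21 dogs with means of at most 1.40. This rule gives 2 sides in any data, so that the split alone does not show separate clusters of dogs. The study's methods describe an earlier pilot preparation of some libraries, with as many cases and as many controls as the high side. The labels do not say which dogs it held, so that whether they are the same dogs was not tested, no batch term was used, and the values of each side are given where they matter. Of the 9 genes tested, none was called between cases and controls by edgeR, DESeq2 or limma-voom after adjustment over all genes. At an unadjusted P-value under 0.05 in edgeR, 1 of the 9, GATA2, was higher in cases and 1, IL5RA, was lower. The median log2 fold change over the 9 genes was 0.03, beside -0.02 over all genes tested.

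GATA2 (ENSCAFG00000004143) had the lowest P-value of the 9 genes. It was counted in every dog, with 15 to 228 reads in cases (median 86) and 23 to 190 in controls (median 38.5). In CPM on the TMM-normalized library sizes, the cases ran from 0.990 through a median of 3.82 to 11.6, and the controls from 0.830 through 2.11 to 5.51. The groups overlapped, with case_09 beside the lowest controls and 3 controls above the case median. Of the 13 cases, 6, from case_06 at 5.83 CPM to case_13 at 11.6 CPM, lay above the highest control, and 11 were above the control median. The means were 5.16 ± 3.33 CPM in cases (SD, n = 13) and 2.46 ± 1.36 CPM in controls (SD, n = 18). The log2 fold change for cases over controls was 1.07 ± 0.30 (SE), with a 95% interval from 0.46 to 1.68, and the P-value of 0.00119 ranked 99 among all genes tested, with an adjusted P-value of 0.166 in edgeR. DESeq2 gave a log2 fold change of 1.07 with an adjusted P-value of 0.0515, where it called 84 genes or 0.604% of those tested. GATA2 is on the list of genes that the study itself selected on these dogs, so that this difference is not independent of that choice. Within the low small RNA side, GATA2 had a mean of 4.91 ± 3.01 CPM in 8 cases and 2.55 ± 1.57 CPM in 13 controls (SD), and within the high side 5.57 ± 4.12 CPM in 5 cases and 2.23 ± 0.63 CPM in 5 controls, so that the mean was higher in cases on both sides.

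**Figure D1:**
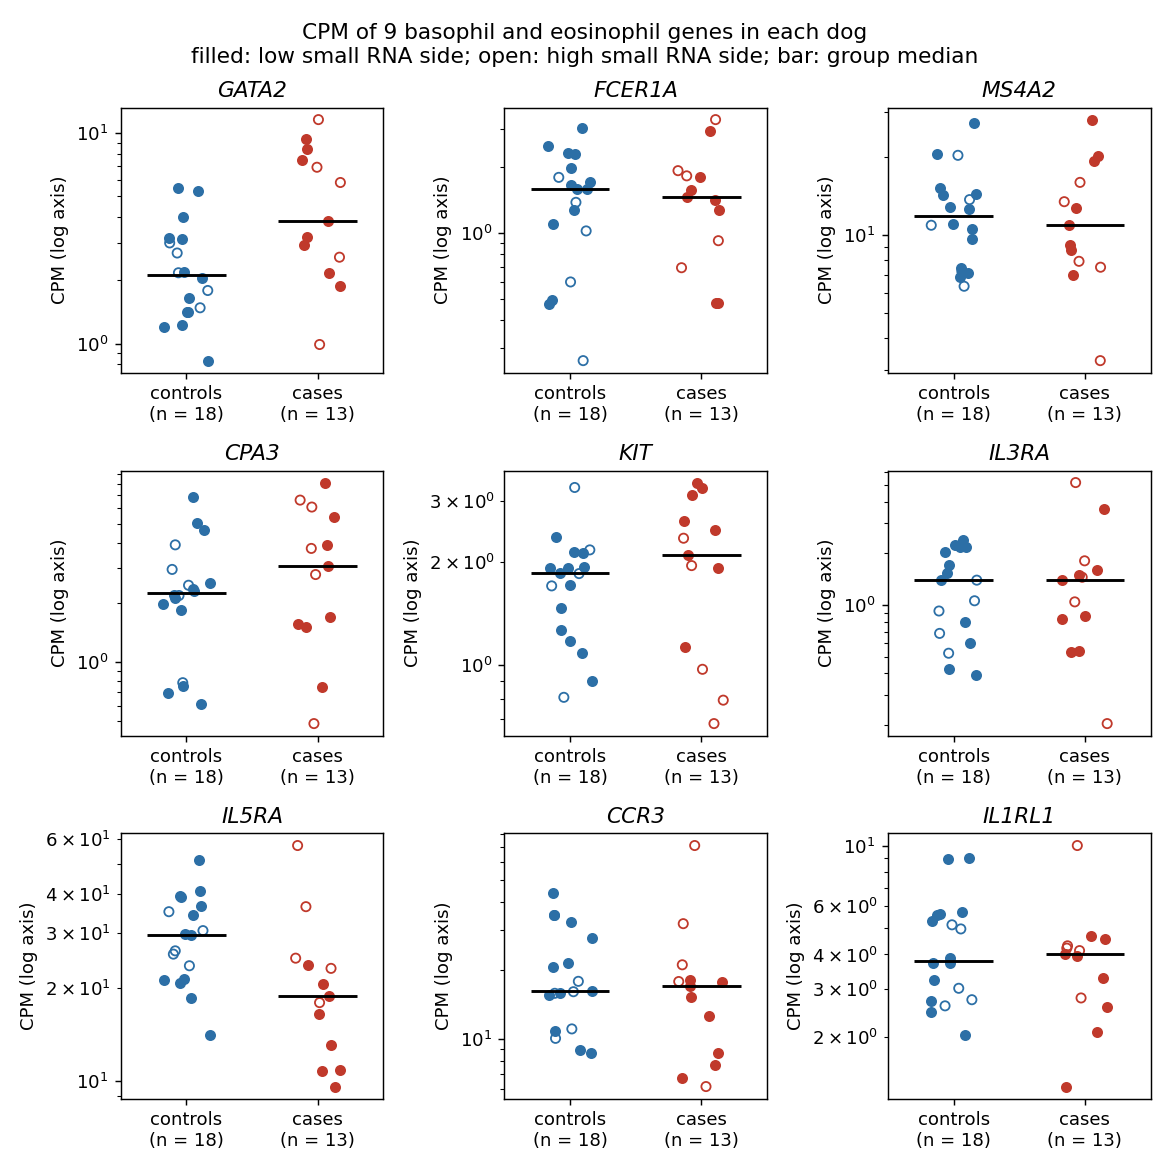
Each panel plots 1 gene in CPM on a logarithmic axis for the 18 controls (blue) and 13 cases (red), 1 point per dog, with open points for the 10 dogs of the high small RNA side and bars at the group medians. In the GATA2 panel 6 cases lie above the highest control at 5.51 CPM, in the IL5RA panel 4 cases lie below the lowest control at 14.1 CPM, in the CCR3 panel 4 cases lie below the lowest control at 8.65 CPM and 1 at 71.0 CPM above the highest, and in no panel are the groups apart.

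Neither FCER1A nor MS4A2, which encode the alpha and beta chains of the high affinity IgE receptor, differed detectably between the groups. FCER1A (ENSCAFG00000011755), the chain that binds IgE, had 8 to 73 reads in cases (median 36) and 2 to 103 in controls (median 36). Its CPM ran from 0.477 through 1.47 to 3.31 in cases and from 0.262 through 1.59 to 3.01 in controls, with 1 case above the highest control and none of the controls above the highest case. Its log2 fold change was 0.03 ± 0.29 (SE), with an adjusted P-value of 0.989. MS4A2 (ENSCAFG00000010352), the beta chain that amplifies the receptor's signal, had 47 to 516 reads in cases (median 221) and 105 to 622 in controls (median 282.5). The mean was 12.7 ± 6.77 CPM in cases and 12.7 ± 5.55 CPM in controls (SD), and the log2 fold change of -0.0033 ± 0.24 (SE) had an adjusted P-value of 0.998. The dogs at both ends of MS4A2 were cases, case_07 at 3.27 CPM and case_01 at 28.0 CPM. The 95% interval ran from -0.56 to 0.61 for FCER1A and from -0.48 to 0.48 for MS4A2, and the lower limit for GATA2 was 0.46.

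Of the granule genes, HDC was the most sparsely counted of the 10 genes and CPA3 had the largest fitted spread between dogs of the 9 tested. HDC (ENSCAFG00000015072), which makes histamine from histidine, had 0 counts in 6 cases and 12 controls. A count of 0 there allows up to 3 counts, or between 0.0691 and 0.392 CPM depending on the depth of the dog. In the other dogs it had 31 counts in all over 7 cases, at most 11 in case_11, and 17 over 6 controls, at most 7 in control_07, and it was below the filter. CPA3 (ENSCAFG00000008235), a carboxypeptidase of mast cell and basophil granules, had 7 to 146 reads in cases (median 74) and 6 to 159 in controls (median 48.5). Its CPM ran from 0.487 through 3.05 to 8.11 in cases and from 0.613 through 2.23 to 6.84 in controls, so that the groups overlapped over nearly the whole range. Cases over controls gave 0.45 ± 0.35 (SE) on the log2 scale, with an unadjusted P-value of 0.206 and an adjusted P-value of 0.707, and 0.29 without case_08. The biological coefficient of variation that edgeR fitted for CPA3, the spread between dogs of a group beyond counting error, was 0.649, above that of 93.6% of all genes tested.

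KIT (ENSCAFG00000002065), the receptor for stem cell factor, had 10 to 96 reads in cases (median 46) and 13 to 102 in controls (median 38.5). Its means were 2.06 ± 0.94 CPM in cases and 1.76 ± 0.59 CPM in controls (SD), with a log2 fold change of 0.24 ± 0.22 (SE) and an adjusted P-value of 0.767. IL3RA (ENSCAFG00000011047), the chain that binds IL-3, a growth factor for basophils, had 3 to 102 reads in cases (median 22) and 4 to 73 in controls (median 31.5). Its group medians were 1.396 and 1.402 CPM, and the 2 highest dogs were cases, with case_13 at 5.19 CPM and the highest control at 2.41 CPM. IL3RA had a log2 fold change of 0.19 ± 0.34 (SE), with an adjusted P-value of 0.898, and without case_13 it was -0.11.

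IL5RA (ENSCAFG00000005991), the chain of the IL-5 receptor that binds the cytokine and is used to mark eosinophils and basophils, stood on the other side of 0. It had 161 to 822 reads in cases (median 369) and 229 to 1400 in controls (median 645). Its CPM ran from 9.62 through 18.9 to 57.2 in cases and from 14.1 through 29.5 to 51.5 in controls. In 11 of the 13 cases IL5RA was below the control median, 4 cases, case_01, case_03, case_08 and case_10, lay below the lowest control, and 1 case, case_07, lay above every control. The means were 21.8 ± 12.9 CPM in cases and 29.9 ± 9.52 CPM in controls (SD). For IL5RA the log2 fold change was -0.46 ± 0.21 (SE), with a 95% interval from -0.89 to -0.03, an unadjusted P-value of 0.038 and an adjusted P-value of 0.471. Without case_07 it was -0.67, with an unadjusted P-value of 0.00105 and an adjusted P-value of 0.138 in edgeR, and without case_01 it was -0.39. With each dog left out in turn, 18 of 31 fits had an unadjusted P-value under 0.05.

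CCR3 (ENSCAFG00000013794), the eotaxin receptor, had 93 to 1021 reads in cases (median 394) and 123 to 1527 in controls (median 351). Its CPM ran from 6.14 through 17.1 to 71.0 in cases and from 8.65 through 16.2 to 43.6 in controls, with 4 cases below the lowest control, a log2 fold change of -0.07 ± 0.30 (SE) and an adjusted P-value of 0.962. IL1RL1 (ENSCAFG00000002142), the receptor for IL-33, had 22 to 181 reads in cases (median 83) and 23 to 235 in controls (median 88). Its means were 3.99 ± 2.08 CPM in cases and 4.46 ± 2.04 CPM in controls (SD), with a log2 fold change of -0.17 ± 0.23 (SE) and an adjusted P-value of 0.861. The highest dog of all 31 was case_07 in IL5RA, CCR3 and IL1RL1 alike, at 57.2, 71.0 and 10.0 CPM, and the same dog was the lowest in MS4A2 and CPA3. Without case_07 the log2 fold change of CCR3 was -0.42 and that of IL1RL1 -0.36, with unadjusted P-values of 0.108 and 0.103 in edgeR. In the other direction, CCR3 was at 0.03 without control_08 and IL1RL1 at -0.07 without control_17.

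The log2 fold change had opposite signs on the 2 small RNA sides in 7 of the 9 genes, all but GATA2 and CPA3. No test of this passed adjustment over all genes. The share of such genes among all those tested was not computed, so that this count does not set the 9 genes apart. For MS4A2 both values were smaller than their SE, at 0.15 ± 0.26 within the low side and -0.27 ± 0.42 within the high side. The high-side value of IL5RA, 0.17 ± 0.28 (SE), was also smaller than its SE. Within the low side, IL5RA had a mean of 15.5 ± 5.19 CPM in 8 cases and 30.5 ± 10.9 CPM in 13 controls (SD), and CCR3 a mean of 13.0 ± 4.74 CPM in cases and 22.5 ± 11.3 CPM in controls. The log2 fold change there was -0.97 ± 0.23 (SE) for IL5RA, with an unadjusted P-value of 0.000281 and an adjusted P-value of 0.182 over the genes tested on that side, and -0.79 ± 0.30 (SE) for CCR3, with an unadjusted P-value of 0.0141. For IL1RL1 it was -0.52 ± 0.28 (SE), with an unadjusted P-value of 0.074. On this side 4 of the 9 genes, GATA2, KIT, IL5RA and CCR3, were under 0.05 before adjustment, beside 10.6% of the genes tested there, and no gene passed the adjustment. KIT had a mean of 2.50 ± 0.77 CPM in cases and 1.68 ± 0.46 CPM in controls (SD) on the low side, with a log2 fold change of 0.58 ± 0.20 (SE) and an unadjusted P-value of 0.00869 in edgeR.

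Within the high side IL5RA, CCR3 and IL1RL1 had higher means in cases, which rested in large part on case_07. GATA2 was the only 1 of the 9 under 0.05 before adjustment there, beside 3.85% of the genes tested there, and no gene passed the adjustment. IL5RA had a mean of 31.9 ± 15.7 CPM in 5 cases and 28.2 ± 4.60 CPM in 5 controls (SD), and CCR3 a mean of 29.7 ± 24.9 CPM in cases and 14.2 ± 3.44 CPM in controls. Without case_07 the mean of IL5RA in the high-side cases was 25.5 ± 7.80 CPM, below that of the controls, and the log2 fold change there was -0.14 ± 0.20 (SE) for IL5RA, 0.45 ± 0.38 for CCR3 and 0.06 ± 0.29 for IL1RL1. A group by side interaction, chosen after these values were seen, gave a log2 difference between the sides of 1.86 ± 0.57 (SE) for CCR3, 1.15 ± 0.38 for IL5RA and 0.98 ± 0.48 for IL1RL1, with unadjusted P-values of 0.00265, 0.00506 and 0.0488. For KIT, whose means on the high side were 1.35 ± 0.75 CPM in cases and 1.96 ± 0.89 CPM in controls (SD), the interaction had the opposite sign, -1.10 ± 0.43 (SE), with an unadjusted P-value of 0.0152. IL3RA was at 1.25 ± 0.72 (SE) and FCER1A at 0.99 ± 0.61, with unadjusted P-values of 0.0946 and 0.114 in edgeR, and without case_13 IL3RA was at 0.47 and without case_05 FCER1A at 0.61. The adjusted P-value was 0.97 for each of these 6 genes, none of the 13918 genes passed the adjustment in that fit, and 605 genes (4.35%) were under 0.05 before adjustment. The high side held case_07, and without this dog the interaction was 1.24 for CCR3, 0.83 for IL5RA and 0.58 for IL1RL1, with unadjusted P-values of 0.0243, 0.0293 and 0.216 in edgeR. For GATA2 the interaction was 0.41 ± 0.67 (SE), with an unadjusted P-value of 0.545, and without 1 dog of the high side at a time it ran from -0.06 to 0.68. What set the dogs of the high side apart was not tested.

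**Figure D2:**
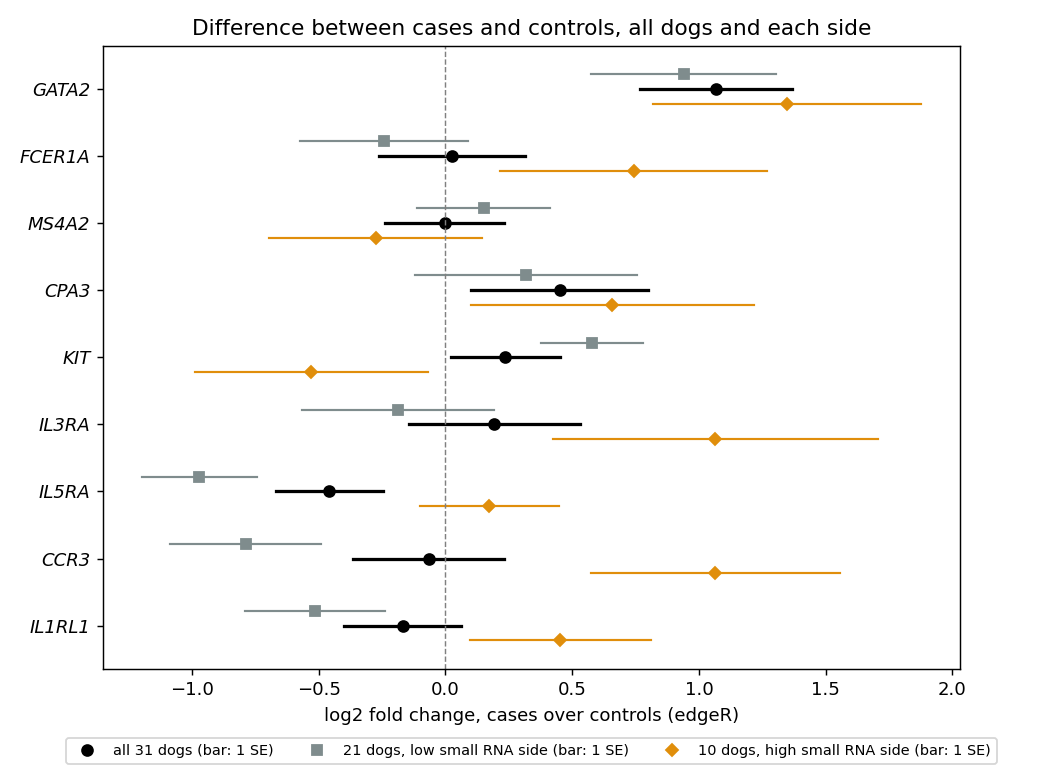
The log2 fold change of each of the 9 genes for cases over controls, from edgeR, is plotted for all 31 dogs (black circles), the 21 dogs of the low small RNA side (grey squares) and the 10 dogs of the high side (orange diamonds), with bars of 1 SE. GATA2 is above 0 in all 3 fits, and CCR3 is at -0.79 on the low side and 1.06 on the high side.

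Sex was the other factor in the labels, and no difference by sex in the 9 genes passed the test. Males against females gave 17 genes at an adjusted P-value of at most 0.05 over all genes in edgeR, 0.122% of those tested, with none of the 9 among them and 0 of the 9 at an unadjusted P-value under 0.05 (4.89% of all genes). The log2 fold change between cases and controls for GATA2 was 0.82 in females and 1.23 in males, and the group by sex interaction of 0.41 had an unadjusted P-value of 0.525. The gene with the lowest P-value for that interaction was FCER1A, at -0.65 in females and 0.39 in males, with an interaction of 1.04 and an unadjusted P-value of 0.0811. None of the 13918 genes passed the adjustment for the interaction in edgeR, and 547 (3.93%) had an unadjusted P-value under 0.05.

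To see which of the genes varied together between dogs, Pearson's r was computed on log2 CPM over the 31 dogs after each group's mean was subtracted, for all 36 pairs of the 9 genes. Of the pairs, 25 had a positive r and 11 a negative r, and 4 passed 0.05 after adjustment over the 36 permutation tests. The same shares among pairs of other genes were not computed, so that these counts do not set the 9 genes apart. CCR3, IL5RA and IL1RL1 formed the closest group. CCR3 and IL1RL1 had an r of 0.80 (Spearman's rho 0.74), IL5RA and CCR3 an r of 0.75 (rho 0.65) and IL5RA and IL1RL1 an r of 0.72 (rho 0.59). The permutation P-values of r were 1e-05, 1e-05 and 2e-05, of which 1e-05 is the smallest that 100000 resamples can give, and the adjusted values were 0.00018, 0.00018 and 0.00024. Those of rho were 3e-05, 0.0001 and 0.00075, with adjusted values of 0.00108, 0.0018 and 0.009. Without the 2 dogs farthest from the median of the first gene, r was 0.76, 0.66 and 0.60. It was 0.84, 0.92 and 0.82 within the high small RNA side and 0.76, 0.65 and 0.66 within the low side.

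The fourth pair was FCER1A with IL1RL1, with an r of 0.50 (P = 0.00438, adjusted 0.0394) and a rho of 0.54 (P = 0.00226, adjusted 0.0136) by permutation. It had an r of 0.65 within the low side and 0.10 within the high side, and of 0.17 within cases and 0.75 within controls, differences that were not tested, and r was 0.52 without the 2 dogs farthest from the median. By rho 7 pairs passed 0.05 after adjustment, among them FCER1A with CCR3 (rho 0.58, permutation P 0.00108, adjusted 0.00929, r 0.45) and with IL5RA (rho 0.57, permutation P 0.00129, adjusted 0.00929, r 0.42). These 2 pairs had r of 0.72 and 0.74 within the low side and of -0.08 and -0.20 within the high side, so that neither was positive there. FCER1A and MS4A2, which belong to 1 receptor, had an r of 0.0033 (permutation P = 0.986) and a rho of 0.04 (P = 0.824). GATA2 had no r past the threshold after adjustment with any of the others, and 1 rho, with FCER1A, that passed it. Its highest r was 0.35, with FCER1A (rho 0.48, permutation P of r 0.0574, adjusted 0.258, and of rho 0.00844, adjusted 0.0434) and with CPA3 (rho 0.39, permutation P of r 0.0687, adjusted 0.275, and of rho 0.0367, adjusted 0.147). With MS4A2 it was 0.06 (permutation P = 0.776).

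**Figure D3:**
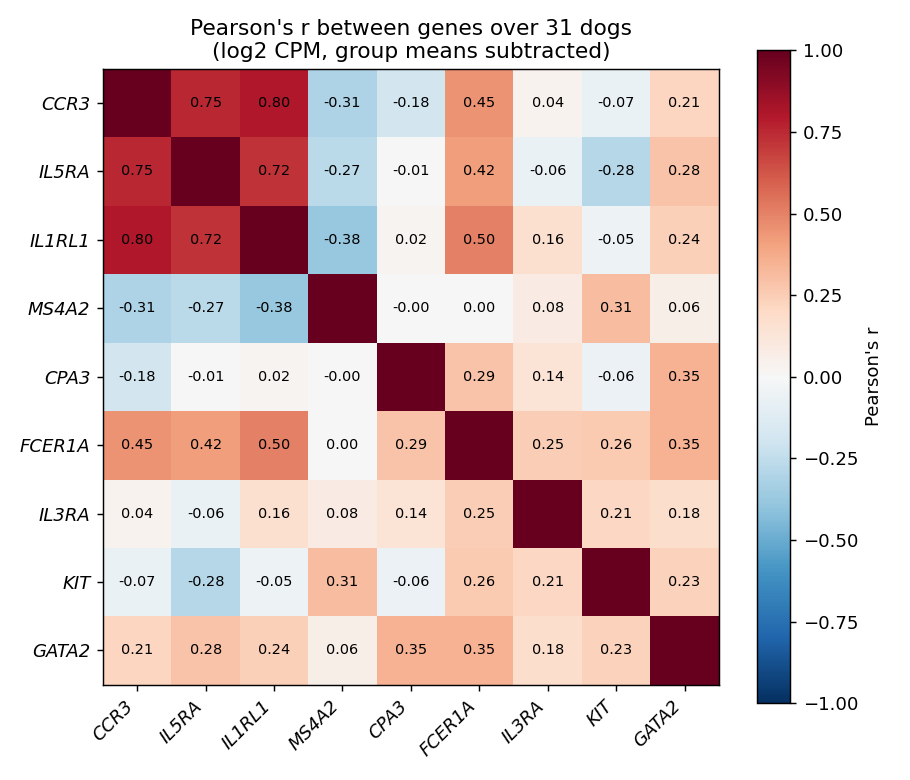
Each square gives Pearson's r between a pair of genes over the 31 dogs, computed on log2 CPM with the group means subtracted, from blue for -1 to red for 1. The dark red block at the upper left holds CCR3, IL5RA and IL1RL1, with r from 0.72 to 0.80, while GATA2 in the last row has no r above 0.35 with another of the genes.

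Measured the same way over all genes tested, the 10 genes most like GATA2 were GADD45G (r = 0.61), GPR34 (0.59), TTN (0.59), HPGD (0.58), IFRD1 (0.58), ENSCAFG00000040874 (0.57), PLK2 (0.55), CUEDC1 (0.54), TMC7 (0.54) and CLEC9A (0.53). GADD45G is a growth arrest and DNA damage gene, GPR34 a receptor for lysophosphatidylserine, HPGD an enzyme that breaks down prostaglandins and CLEC9A a lectin of dendritic cells. None of the other 8 genes was among them, and the nearest, CPA3 and FCER1A, ranked 154 and 155. CCR3 had much closer company, with B4GALNT1 (r = 0.94), ENSCAFG00000016251 (0.92), PTPRN2 (0.91), LPIN1 (0.90) and FCRL2 (0.89). For IL5RA the first was CATSPERG (0.80), which was also the first for IL1RL1 (0.81). For MS4A2 it was NPC2 (0.74), a cholesterol carrier of lysosomes, and CLEC9A was among the 5 most like CPA3 (0.65). These values are over 31 dogs and are descriptions without a test.

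None of the other basophil and mast cell genes that could be tested differed detectably between the groups. Of 20 listed genes 7 passed the filter, and none had an unadjusted P-value under 0.05, with a median log2 fold change of -0.05. The lowest P-value was that of HRH4, a histamine receptor, at -0.45 ± 0.24 (SE) with an unadjusted P-value of 0.0688. The others were CYSLTR2 (-0.28), ENPP3 (-0.10), AKAP12 (0.06), CRLF2 (-0.05), CMA1, the mast cell chymase (0.01), and ADORA3, whose means were 5.55 ± 5.49 CPM in cases and 5.49 ± 2.31 CPM in controls (SD). Below the filter were HPGDS, SLC18A2, SLC45A3, GCSAML, LTC4S, IL4, IL13 and RAB27B, of which SLC45A3 had the most, 265 counts over 29 dogs. The tryptases TPSAB1 and TPSB2, and MRGPRX2, MS4A3 and CD200R1, were not analysed here.

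Of 16 other eosinophil genes 5 passed the filter and none had an unadjusted P-value under 0.05, with a median log2 fold change of 0.17. ALOX15, a lipoxygenase that eosinophils express, had 1612 ± 2357 CPM in cases and 741 ± 895 CPM in controls (SD), a log2 fold change of 1.12 ± 0.62 (SE) and an unadjusted P-value of 0.0811. The highest dog, case_01, had 8916 CPM, and without it the cases had 1003 ± 898 CPM (SD) and the log2 fold change was 0.44 ± 0.59 (SE). The other values were 0.26 for CEBPE, 0.17 for SYNE1, 0.10 for PTGDR2 and -0.24 for ADGRE1. PRG3, SMPD3, IL5, CCL24 and CCL26 were below the filter, and the granule genes EPX, PRG2, CLC and RNASE2, as well as SIGLEC8 and CCL11, were not analysed here. Whether IL5RA, CCR3 and IL1RL1 followed the eosinophils therefore could not be checked against the genes of granule proteins in these dogs.

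In the pathways around the receptors, CISH alone of the genes tested on both lists was under 0.05 before adjustment, beside 9.81% of all genes. All 16 genes of the signalling path below the IgE receptor were tested, from the kinases LYN and SYK to the lipase PLCG1, and none had an unadjusted P-value under 0.05. Their median log2 fold change was 0.02, and the lowest P-value was that of the adaptor LAT, at 0.18 ± 0.10 (SE) with an unadjusted P-value of 0.0815. The next was PLCG1, at -0.15. FCER1G, the gamma chain of the receptor, named here after its values were seen, had 210.4 ± 38.7 CPM in cases and 207.9 ± 89.7 CPM in controls (SD), with a log2 fold change of 0.02 ± 0.15 (SE). Of the 18 partner, ligand and signalling genes of the IL-3, IL-5, IL-33 and stem cell factor receptors 13 were tested, with a median of 0.04. CISH, a target and inhibitor of STAT5, had 63.4 ± 22.9 CPM in cases and 40.6 ± 12.0 CPM in controls (SD), a log2 fold change of 0.64 ± 0.15 (SE) and an adjusted P-value of 0.0741 in edgeR and 0.0113 in DESeq2. CISH is also on the study's own list from these dogs. PIM1, another STAT5 target, was at 0.45 ± 0.24 (SE) with an unadjusted P-value of 0.0758, and IRAK1 at 0.19 ± 0.10 (SE) with 0.0629. IL3 had 0 counts in all 31 dogs, and KITLG, IL33, CSF2 and TSLP were below the filter.

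**Figure D4:**
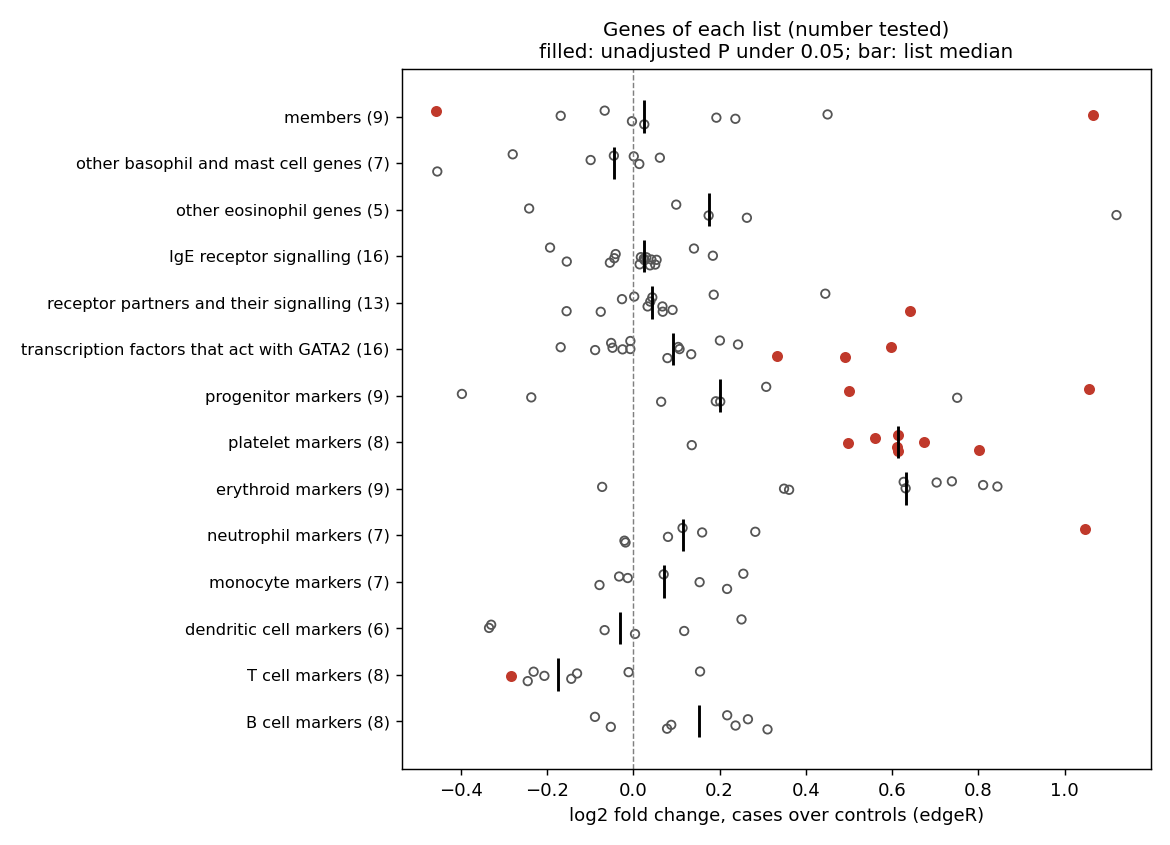
Each point is the log2 fold change of 1 tested gene for cases over controls in edgeR, in rows for the 9 tested genes described here (members) and 13 other lists, filled where the unadjusted P-value was under 0.05, with a bar at each list's median. Among the 9 genes GATA2 lies at 1.07 and IL5RA at -0.46, and 7 of the 8 platelet markers are filled.

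Transcription factors that act with GATA2 in blood cells were listed as well. Of 19 genes 16 were tested, with a median log2 fold change of 0.09, and 3 had an unadjusted P-value under 0.05, all of them higher in cases, beside 5.04% of all genes. They were ZFPM1, the GATA cofactor FOG-1, at 0.49 ± 0.15 (SE) with an unadjusted P-value of 0.00264, TAL1 at 0.33 ± 0.13 with 0.0147, and ERG at 0.60 ± 0.24 with 0.0171, and their adjusted P-values were 0.232, 0.355 and 0.365. GATA1, LYL1 and CEBPA were not analysed here. Among 12 progenitor markers 9 were tested, with a median of 0.20. CD34 was at 1.06 ± 0.35 (SE), with 0.991 ± 0.622 CPM in cases, 0.473 ± 0.276 CPM in controls (SD) and an adjusted P-value of 0.278. MEIS1 was at 0.31 ± 0.16 (SE) with an unadjusted P-value of 0.0635. CD34 is on the study's list too.

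Platelet markers were read beside GATA2. Of 12 listed genes 8 were tested, and 7 of these had an unadjusted P-value under 0.05, all with a positive log2 fold change, beside 5.04% of all genes. Their median was 0.61, with none at an adjusted P-value of at most 0.05. Their summed level ran from 940 to 4351 CPM in cases (median 2478) and from 641 to 4565 CPM in controls (median 2236), and CMTM5 had 0 counts in all dogs. The lowest P-values were those of SELP at 0.56 ± 0.17 (SE), GP6 at 0.61 ± 0.19 and TREML1 at 0.61 ± 0.19. With the mean platelet level of each dog as a covariate, the log2 fold change of GATA2 was 1.00 with an unadjusted P-value of 0.00799 and an adjusted P-value of 0.713 in edgeR. The markers of the other blood cells had medians of 0.63 for 9 erythroid genes, 0.11 for 7 neutrophil, 0.07 for 7 monocyte, -0.03 for 6 dendritic cell, -0.18 for 8 T cell and 0.15 for 8 B cell genes. Of all these markers MMP9 (1.05) and CD28 (-0.28) had an unadjusted P-value under 0.05, beside 9.81% of all genes, with adjusted P-values of 0.475 and 0.455.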

How the data were processed

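Whole-blood RNA was made into libraries with a stranded total RNA kit that removes ribosomal RNA. After trimming with Trimmomatic, the authors used HISAT2 to align reads to Dog10K_Boxer_Tasha, and a pair was counted when both mates mapped. They deposited these counts per gene without normalization, and the counting program and gene annotation are not given in the sources used here. Rows carry Ensembl dog identifiers with symbols and no coordinates. The limit given for a count of 0 covers counting error only.

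Groups came from the sample labels, with each dog as 1 replicate. TMM normalization, filterByExpr and the comparison were done in edgeR 4.0.16 (R 4.3.3), which compared cases with controls by glmQLFit and glmQLFTest with no covariate, with Benjamini-Hochberg adjustment over 13918 genes and a threshold of 0.05. The study's methods name DESeq2 with a batch covariate. The labels do not give the batch, so that DESeq2 1.42.0 was run without it, as an alternative, as was limma-voom 3.58.1. The test was checked on simulated counts. CPM was computed on library sizes after TMM, and log2 CPM had a prior count of 2. Correlations used 2-sided permutation tests with 100000 resamples of dogs within groups (Python 3.11.15, numpy 2.4.6, scipy 1.17.1, pandas 2.3.3), and matplotlib 3.10.9 drew the figures.

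The genes and lists were chosen with earlier results of these data known. Every one of the 10 genes is named, together with all tested genes of the other basophil and eosinophil lists, the 3 genes with the lowest P-values of the other pathway lists, genes with no counts, and the 10 genes most like GATA2. Some genes that this rule names are not reported here. For the blood cell marker lists only genes with an unadjusted P-value under 0.05 are named outside the platelet list. The side interaction, the high side without case_07, ALOX15 without its highest dog and the genes most like the other 8 were added after values were seen. Further alternatives were other normalizations and filters, sex, the small RNA split or the platelet level as a covariate, each side alone, dog numbers as a block, and single dogs left out.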

Additional observations from a re-analysis of the deposited data

Results flagged for a closer look

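In 36 groups of 5 to 10 dogs, made of the 9 tested genes in each group and sex, the highest or lowest dog was compared with the spread of its group on the log2 CPM scale, and 2 groups held a dog far from the others. Chance flags about 1 in 20 groups. FCER1A in control_01 was at -0.78 log2 CPM, while the other dogs of the 8 female controls lay between 0.45 and 1.38. CPA3 in control_12 was at -0.51 log2 CPM, while the others of the same 8 dogs lay between 0.94 and 2.24. No other group of the 36 was flagged.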

How the results depend on the processing

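None of the 9 genes was called at an adjusted P-value of at most 0.05 under any alternative. GATA2 stayed above 0 with an unadjusted P-value under 0.05 under all 14 alternatives, with log2 fold changes from 0.90 to 1.35, and with each dog left out, from 0.91 (without case_13) to 1.18 and adjusted P-values from 0.0657 to 0.285. The dog numbers did not pair cases with controls (3 of 13 pairs had a correlation above 0.1, and 1 dog correlated best with its own number). With the replicate block GATA2 was at 0.90 (adjusted P = 0.72), and 0 genes were called. The count of all genes called, 5, was 84 in DESeq2, 103 in DESeq2 with the small RNA split, 28 without case_01 and control_03, 1 with at least 10 counts in every dog, and 0 in limma-voom, with the platelet covariate and on either side alone. It ran from 1 to 154 with single dogs left out, the highest without control_03, and 17 of these 31 counts differed from 5 by over 1.5 times. Directions turned as follows. FCER1A was at -0.042 in limma-voom, -0.014 with sex and -0.24 on the low side, and from -0.12 to 0.12 with dogs left out. MS4A2 was at 0.013 with the split in edgeR and 0.011 in DESeq2, 0.076 with the platelet covariate and 0.15 on the low side, and from -0.16 to 0.10 with dogs left out. IL3RA was at -0.073 in limma-voom and -0.19 on the low side, and from -0.11 to 0.30 with dogs left out. On the high side KIT was at -0.53, IL5RA at 0.17, CCR3 at 1.06 and IL1RL1 at 0.45. With the platelet covariate CCR3 was at 0.027, IL1RL1 at 0.0093 and CPA3, which kept its sign, at 0.27. CCR3 ran from -0.42 to 0.035 and IL1RL1 from -0.36 to -0.072 with dogs left out. IL5RA kept its sign there (-0.67 to -0.39) and had an unadjusted P-value under 0.05 in 18 of 31 such fits. It was not under 0.05 with the platelet covariate, on the high side alone or without case_01 and control_03. The causes were not tested. The lowest count of the 9 genes in any dog was 2, for FCER1A.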
